A study of Mus musculus with 12 samples.

Results

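The 37 genes described here encode the machinery that copies DNA: they were chosen by name, as a list of DNA replication genes, and all 37 were found among the 54532 genes of the count table. They were measured by bulk RNA-seq in sorted cells of newborn mouse testis from the strain Tg(Pou5f1-EGFP)2Mnn, whose transgene puts green fluorescent protein (GFP) under the promoter of Pou5f1 (OCT4) and so marks germ cells. Dexamethasone (dex), a synthetic agonist of the glucocorticoid receptor, at 10 μg per g of body weight, or saline vehicle was injected into pregnant dams at E17.5 and E18.5 and under the skin of the pups at birth, and testes were taken at postnatal day 1. The 4 groups of 3 libraries each were GFP-positive germ cells from saline-treated animals, GFP-positive germ cells from dex-treated animals, and the GFP-negative somatic cells of either treatment. The somatic libraries are a mixture of all testis cells without GFP, and a replicate pooled testes from at least 2 litters dosed separately. All 12 libraries carried the transgene, and all animals were injected.

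Replication starts at origins, where the origin recognition complex, with Cdc6 and Cdt1, loads the MCM helicase in the G1 phase of the cell cycle. Geminin (Gmnn) holds Cdt1 in check after S phase has begun. Cdc45, the GINS proteins and Mcm10 then switch the helicase on, DNA polymerase alpha with its primase lays down primers, polymerases epsilon and delta extend them on the sliding clamp Pcna, and Fen1 and Lig1 process and join the lagging strand. E2F transcription factors, held back by proteins of the retinoblastoma family, drive the transcription of many of these genes before S phase. Male germ cells around birth, called prospermatogonia, are known for a long mitotic arrest that ends in the days after birth, whereas Sertoli cells and other somatic cells of the testis divide at this age.

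Promoter sequence played no part in choosing the genes, and the stretches that hold an E2F site are shown because E2F factors are known regulators of the family. RefSeq promoters (GRCm38.p6, 250 bases before to 50 bases after the transcription start) were at hand for 30 of the 37 genes. The E2F site was searched on both strands as TTTCCCGC, TTTCGCGC, TTTGCCGC and TTTGGCGC, and 12 of the 30 genes (40.0%) held it, against 2.61% of the 27025 genes in the table. In the 250 bases before the start alone it was found in 7 of 30 (23.3%) against 2.16% of all genes. The genes with a site before the start were Cdc6, Mcm5, Mcm6, Mcm7, Orc1, Pola1 and Rfc3. For 6 of them, all but Mcm7, the stretch around the site follows, 5′ to 3′ on the strand of the gene, with the site in capitals.
Orc1, which binds origins (chr4:108579407-108579453, + strand): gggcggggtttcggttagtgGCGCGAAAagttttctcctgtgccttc
Cdc6, which loads the helicase (chr11:98907993-98908040, + strand): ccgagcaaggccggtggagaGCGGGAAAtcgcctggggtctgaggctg
Mcm5, a helicase subunit (chr8:75109336-75109387, + strand): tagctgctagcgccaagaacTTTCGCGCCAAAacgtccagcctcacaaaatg
Mcm6, a helicase subunit (chr1:128359725-128359835, - strand): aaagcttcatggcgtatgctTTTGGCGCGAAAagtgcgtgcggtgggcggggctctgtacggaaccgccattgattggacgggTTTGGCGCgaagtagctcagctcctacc
Pola1, the catalytic subunit of polymerase alpha (chrX:93632266-93632313, - strand): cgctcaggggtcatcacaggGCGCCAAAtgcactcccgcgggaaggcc
Rfc3, a clamp loader subunit (chr5:151651209-151651238, - strand): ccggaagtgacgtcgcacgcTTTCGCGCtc

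In Mcm5 and at the upstream block of Mcm6, 2 words overlapped on opposite strands, and Mcm6 held 3 words in all. In GENCODE M21 the stretches of Mcm5, Mcm6 and Pola1 lay outside annotated transcripts, that of Cdc6 lay in an intron, that of Orc1 touched exons of non-coding Orc1 transcripts and that of Rfc3 lay in the leading exon of Rfc3. The CCAAT box (CCAAT) was present in a promoter of 18 of the 30 genes (60.0%) against 41.1% of all genes. The cell cycle homology region (CHR, TTTGAA) was present in 3 of 30 (10.0%) against 20.2%. The palindrome bound by the glucocorticoid receptor (GNACA and TGTNC, 3 bases apart) was present in 0 of 30 against 0.537%. A word in these windows is a description of sequence and was not tied to binding in these cells.

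The libraries held 18459692 to 25178477 counts. Counts of the 37 genes made up 0.618% to 0.706% of each germ cell library and 0.287% to 0.328% of each somatic library. Ddx4 and Dazl, which define germ cells, stood at 580.4 to 1292 CPM (counts normalised for sequencing depth, with TMM factors taken from all 12 libraries) in germ cell libraries and at 0.396 to 1.99 CPM in somatic libraries. In saline germ cells the Sertoli gene Amh was at 0.707% of its somatic level, Sox9 at 3.78%, the stromal gene Col1a1 at 2.46% and the Leydig gene Star at 18.1%. All 37 genes passed the filter on low counts in every comparison. In bulk samples fewer cells of a type in S phase and less RNA per cell cannot be told apart.

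Saline germ cells were first set against saline somatic cells, to see how the replication machinery of germ cells compared with that of their neighbours. Transcripts of most replication genes were higher in germ cells: 28 of 37 were called higher at an adjusted p at or under 0.05 (edgeR quasi-likelihood test, Benjamini-Hochberg over 18870 genes), 5 were called lower and 4 were not called. Over all genes tested, 39.8% were called higher and 36.7% lower in germ cells. The median log2 fold change of germ over somatic cells was 1.04 over the 37 genes, a fold of 2.05, and 0.07 over all genes. The comparison was repeated in the dex libraries, which share no sample with the saline ones, and 28 genes were again called higher and 5 lower, against 40.5% and 35.7% of all genes, with a median of 0.98. These were the same 28 and the same 5 genes. Over the 37 genes the log2 fold changes of both comparisons correlated at r = 0.988 (Pearson, a description across genes of the same cell types), and the largest difference between them was 0.39. The medians of all genes rose from 0.07 to 0.21 in saline and from 0.12 to 0.30 in dex when library totals replaced TMM, and the fold changes of the 37 genes are to be read against that shift.

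**Figure D1:**
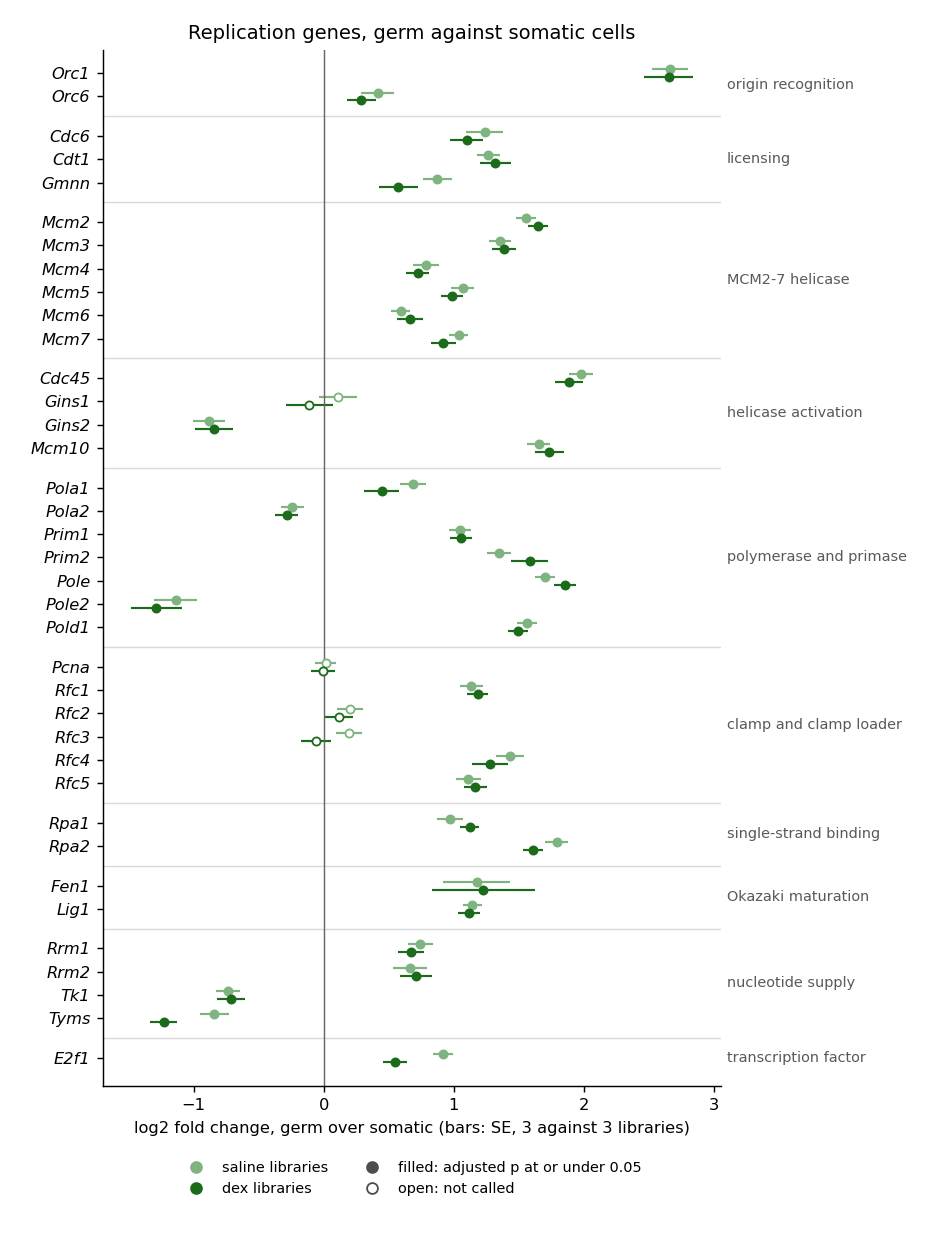
Log2 fold change of germ over somatic cells for the 37 replication genes, ordered by role on the vertical axis, in saline libraries (light) and dex libraries (dark), with bars of 1 SE and filled points for adjusted p at or under 0.05 (3 against 3 libraries). Most points lie right of 0, Orc1 farthest at 2.66 and 2.65, while Pole2, Gins2, Tyms, Tk1 and Pola2 lie left of 0 in both.

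Of the origin and licensing genes, all 5 were higher in germ cells. Orc1, the largest subunit of the origin recognition complex (gene body chr4:108579423-108614833, + strand, GRCm38), was at 56.9, 67.1 and 55.5 CPM in replicates 1, 2 and 3 of saline germ cells and at 8.91, 10.1 and 8.10 CPM in saline somatic cells. Every germ cell library lay far above every somatic one, and the log2 fold change was 2.66 ± 0.14 (SE, adjusted p = 3.91e-09, edgeR). In dex, Orc1 was at 52.6, 51.4 and 57.6 CPM in germ cells and at 8.24, 5.84 and 10.4 CPM in somatic cells, with a log2 fold change of 2.65 ± 0.19. Orc6, a small subunit of the same complex, was higher by 0.41 ± 0.13 in saline and 0.29 ± 0.11 in dex, calls that were lost without germ saline replicate 2 and in 5 of the 6 dex fits that left out 1 library. Cdc6 was 1.24 ± 0.14 higher and 1.10 ± 0.13 higher, in the same order.

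Cdt1, which brings the helicase to origins (chr8:122568015-122573554, + strand), was at 206, 189.8 and 186 CPM in saline germ cells and at 83.2, 71.9 and 76.6 CPM in saline somatic cells (log2 fold change 1.26 ± 0.09, adjusted p = 7.32e-08). Its inhibitor Gmnn (chr13:24751845-24761923, - strand) was at 56.9, 64.8 and 59.0 CPM in germ cells and at 30.9, 34.3 and 29.0 CPM in somatic cells (0.87 ± 0.11, adjusted p = 1.29e-05). The germ cell libraries lay above the somatic libraries without overlap for either gene. Per length, as a log2 ratio of FPKM (the deposited values, scaled by gene length and library size), Cdt1 stood above Gmnn by 0.59 ± 0.15 (SD, n = 3) in saline germ cells and 0.74 ± 0.15 in dex germ cells. In somatic cells the ratio was 0.20 ± 0.20 in saline and -0.02 ± 0.25 in dex, so the lowest of the 6 germ cell libraries, at 0.45, lay above the highest of the 6 somatic libraries, at 0.33.

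The 6 subunits of the MCM helicase, which unwinds the parental strands, were all higher in germ cells in both comparisons. In saline their log2 fold changes ran from 0.59 ± 0.07 for Mcm6 through 0.79 ± 0.10 for Mcm4, 1.04 ± 0.07 for Mcm7, 1.07 ± 0.09 for Mcm5 and 1.36 ± 0.09 for Mcm3 to 1.55 ± 0.08 for Mcm2. Mcm2 (chr6:88883474-88898780, - strand) had the highest CPM of the 37 genes in germ cells, at 612, 615 and 593 CPM in saline, and stood at 184, 212 and 198 CPM in saline somatic cells (adjusted p = 2.79e-09). The germ cell libraries were close to each other and far above the somatic ones. In dex the subunits came in the same order, from Mcm6 at 0.66 to Mcm2 at 1.65.

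Of the genes that activate the helicase, Cdc45 and Mcm10 were among the largest differences and the GINS genes were not. Cdc45, part of the active helicase (chr16:18780447-18811987, - strand), was at 121, 115 and 112 CPM in saline germ cells and at 29.2, 28.7 and 26.4 CPM in saline somatic cells (log2 fold change 1.98 ± 0.09, adjusted p = 1.98e-09). With dex it was at 122, 107 and 131 CPM against 28.7, 30.1 and 33.7 CPM (1.88 ± 0.11). The fold in saline was 3.94, and no germ cell library came near the somatic range.

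Mcm10, which helps Cdc45 to load (chr2:4989714-5012791, - strand), was at 121, 129 and 121 CPM in saline germ cells and at 37.7, 39.5 and 35.7 CPM in saline somatic cells (1.65 ± 0.09), and at 111, 93.3 and 113 CPM against 31.1, 27.8 and 31.7 CPM in dex (1.73 ± 0.11). Gins2, a GINS subunit (chr8:120578633-120589304, - strand), had the opposite direction, at 19.1, 17.4 and 18.8 CPM in saline germ cells and 33.0, 32.3 and 32.3 CPM in saline somatic cells (-0.88 ± 0.12, adjusted p = 2.86e-05). In dex it was at 13.6, 16.3 and 15.5 CPM in germ cells and 27.3, 26.5 and 23.7 CPM in somatic cells (-0.84 ± 0.15). The counts of Gins2 are uncertain, because 67.3% of its exonic bases lie under exons of Gse1 on the other strand and the strand setting of the counting is not given in the sources used here. Gins1 was not called in either comparison, with intervals of -0.20 to 0.42 in saline and -0.51 to 0.29 in dex (95%, log2).

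Of the 7 polymerase and primase genes, 5 were higher and 2 lower in germ cells. Pole, the catalytic subunit of polymerase epsilon, which extends the leading strand (chr5:110286306-110337474, + strand), was at 268, 274 and 259.5 CPM in saline germ cells and at 80.7, 76.8 and 78.6 CPM in saline somatic cells (1.70 ± 0.08, adjusted p = 1.16e-09). In dex it was at 288, 256 and 276 CPM against 65.8, 77.1 and 72.4 CPM (1.85 ± 0.09). Its partner subunit Pole2 (chr12:69201773-69228195, - strand) went the other way, at 9.31, 9.98 and 8.05 CPM in saline germ cells and 20.5, 19.0 and 18.0 CPM in saline somatic cells (-1.14 ± 0.16, adjusted p = 4.63e-05).

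Pole2 showed the same order in dex, at 6.81, 7.33 and 9.75 CPM in germ cells and 17.3, 20.7 and 17.3 CPM in somatic cells (-1.29 ± 0.20), and no germ cell library reached the somatic range. Pold1, the catalytic subunit of polymerase delta, was higher by 1.56 ± 0.08 in saline and 1.49 ± 0.08 in dex. The primase subunits Prim1 (1.05 ± 0.09 in saline) and Prim2 (1.35 ± 0.09) and Pola1 (0.69 ± 0.10) were higher too. Pola2, the accessory subunit of polymerase alpha, was slightly lower, at -0.24 ± 0.09 in saline (adjusted p = 0.0235, edgeR) and -0.29 ± 0.09 in dex. In both, the call was lost with library totals or RLE size factors in place of TMM, with DESeq2 and without a filter on low counts. The saline call was also lost with at least 10 counts in every library, in both fits on FPKM and without germ saline replicate 2. The dex call was also lost without germ dex replicate 3.

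**Figure D2:**
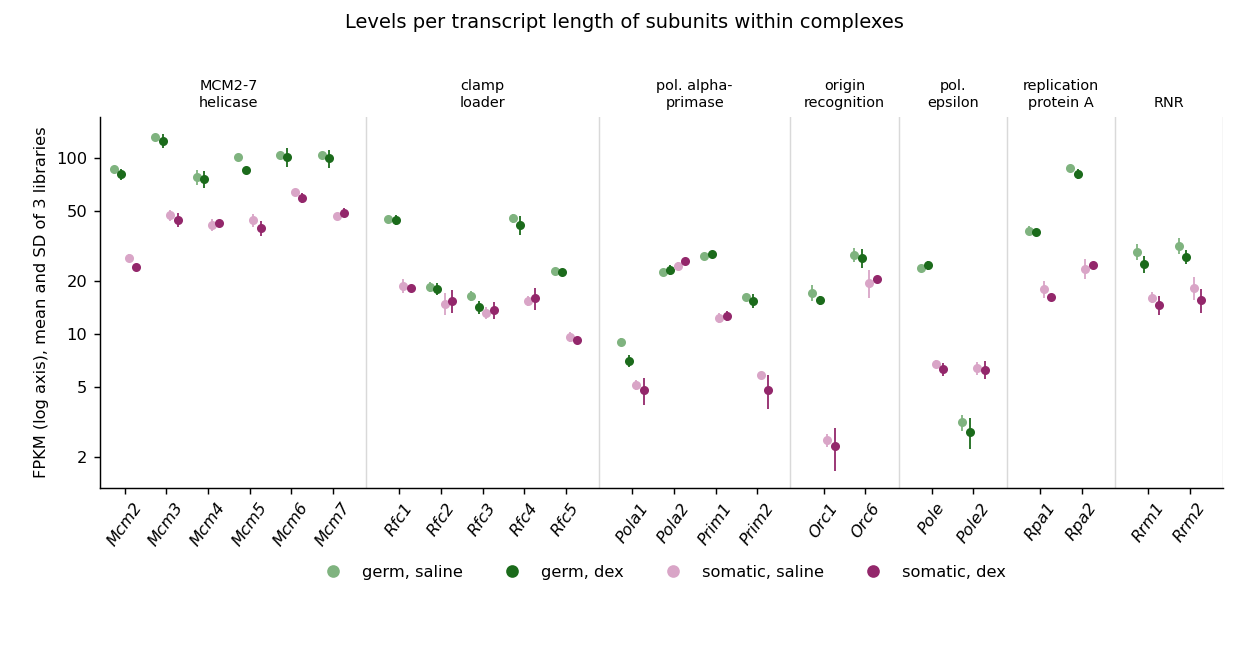
FPKM on a log axis of subunits within 7 complexes or pairs, as mean and SD of 3 libraries in saline and dex germ cells (greens) and saline and dex somatic cells (pinks); RNR is ribonucleotide reductase. Pole and Pole2 are level in somatic cells and far apart in germ cells, while Orc1 and Orc6 are far apart in somatic cells and closer in germ cells.

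Levels per length put these differences inside complexes. In FPKM, Pole was 7.57 times Pole2 in saline germ cells (23.9 against 3.15) and 1.06 times in saline somatic cells (6.76 against 6.38). The reverse held for the origin recognition pair, where Orc6 was 1.65 times Orc1 in germ cells and 7.87 times Orc1 in somatic cells. The 6 MCM genes were close to each other in saline germ cells, from 78.2 FPKM for Mcm4 to 131.8 FPKM for Mcm3, a range of 1.69 times, and spread over 2.35 times in saline somatic cells, from 27.2 FPKM for Mcm2 to 63.9 FPKM for Mcm6.

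Ribonucleotide reductase, which makes deoxyribonucleotides, had its subunits Rrm1 and Rrm2 nearly level in every group, with a ratio of group means from 1.06 to 1.14. Replication protein A, which coats exposed strands, had Rpa2 at 2.28 times Rpa1 in saline germ cells and 1.30 times in saline somatic cells. The median FPKM of the 37 genes was 29.5 in saline germ cells and 16.1 in saline somatic cells, against 3.68 and 5.11 over the genes tested. Mcm3 was highest in germ cells and Pcna, at 72.7 FPKM, in somatic cells of the saline groups. Tests were not run between genes, whose FPKM also depend on the transcript length used.

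The sliding clamp itself did not separate the populations. Pcna, which tethers polymerases to DNA (chr2:132249162-132253314, - strand), was at 184, 201 and 192 CPM in saline germ cells and at 164, 196 and 186 CPM in saline somatic cells, so the libraries overlapped (log2 fold change 0.01 ± 0.08, 95% interval -0.16 to 0.19, adjusted p = 0.886). In dex it was at 162, 160.3 and 197 CPM in germ cells and 161, 163 and 172 CPM in somatic cells (-0.01 ± 0.09, interval -0.20 to 0.19), and the sign of the dex value turned with the scaling. A processed pseudogene, Pcna-ps2, shares 16.1% of the words of 64 bases in Pcna transcripts.

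Of the clamp loader, which opens Pcna, Rfc1 (1.13 ± 0.09 in saline), Rfc4 (1.43 ± 0.11) and Rfc5 (1.11 ± 0.09) were higher in germ cells. Rfc2 and Rfc3 were not called in either comparison, with log2 fold changes of 0.20 and 0.20 in saline and 0.11 and -0.06 in dex. In saline, however, both were called higher when library totals or RLE size factors replaced TMM and with DESeq2. They were also called there with at least 10 counts in every library and in both fits on FPKM. Rpa2 (chr4:132768332-132778752, + strand) was at 262, 269 and 267 CPM in saline germ cells and at 74.1, 65.6 and 80.8 CPM in saline somatic cells (1.79 ± 0.09, adjusted p = 3.60e-09). Rpa1 was higher by 0.97 ± 0.10. Both stayed higher in dex, at 1.61 ± 0.08 for Rpa2 and 1.12 ± 0.07 for Rpa1.

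Lig1, the ligase that joins Okazaki fragments, was higher by 1.14 ± 0.07 in saline. Fen1, the flap nuclease, was the least abundant gene of the 37 in somatic cells, at 3.10 to 6.02 CPM in saline somatic and 9.87 to 12.3 CPM in saline germ cells (1.17 ± 0.26, adjusted p = 0.00126), and its call in dex (1.23 ± 0.40) was lost without germ dex replicate 2. Its counts are uncertain, because 78.8% of its exonic bases lie under exons of the antisense gene Gm10143.

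The genes of nucleotide supply split. Rrm2 (chr12:24708241-24714146, + strand) was at 91.6, 95.8 and 77.6 CPM in saline germ cells and at 47.8, 65.2 and 47.4 CPM in saline somatic cells (0.66 ± 0.13, adjusted p = 0.000622), and Rrm1 was higher by 0.74 ± 0.10. Tyms, the enzyme that makes thymidylate (chr5:30058202-30073617, - strand), was lower in germ cells, at 49.5, 51.3 and 41.4 CPM against 83.9, 74.1 and 85.6 CPM in saline (-0.84 ± 0.11, adjusted p = 2.39e-05) and at 34.2, 32.4 and 37.9 CPM against 72.3, 82.9 and 77.5 CPM in dex (-1.23 ± 0.11). Tk1, which salvages thymidine (chr11:117815526-117826092, - strand), was lower as well, at 48.3, 51.1 and 52.5 CPM against 83.1, 75.6 and 82.6 CPM in saline (-0.73 ± 0.09, adjusted p = 1.47e-05). The ranges of the populations did not overlap for any of these 3 genes, so both thymidylate genes were lower and both reductase subunits higher in germ cells.

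Tk1 in dex was at 42.8, 47.7 and 49.2 CPM in germ cells and 65.7, 71.6 and 80.2 CPM in somatic cells (-0.71 ± 0.11). E2f1, a transcription factor that activates S phase genes (chr2:154559407-154569892, - strand), was at 133, 143 and 143 CPM in saline germ cells and at 69.2, 71.8 and 72.0 CPM in saline somatic cells (0.91 ± 0.08, adjusted p = 3.68e-07). Every germ cell library was above every somatic library. Of the 7 genes with an E2F site before the start, 6 were called higher in germ cells in both comparisons, and Rfc3 was not called. Over the 37 genes 28 were called higher in each comparison, against 39.8% of all genes in saline and 40.5% in dex. A part of the site in these differences was not tested.

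A list of 66 other replication, nucleotide and G1/S genes had 43 called higher and 8 called lower in saline germ cells, with a median log2 fold change of 0.80. A list of 20 mitosis genes had 12 higher and 4 lower, with a median of 0.81. Over all genes 39.8% were called higher and 36.7% lower, with a median of 0.07. The largest differences in the former were Wdhd1, a replisome scaffold (2.57 ± 0.10), the histone chaperone Asf1b (2.29 ± 0.12) and Rb1, a repressor of E2F factors (2.25 ± 0.09), on the higher side. On the lower side they were Rbl2, a relative of Rb1 (-3.06 ± 0.17), Pold4, a small subunit of polymerase delta (-2.81 ± 0.27), and Dtymk, which acts after Tyms and Tk1 (-1.46 ± 0.09). Of the mitosis genes, the kinetochore gene Cenpf (1.56 ± 0.09), the cyclin Ccnb1 (1.56 ± 0.09) and the checkpoint kinase Bub1 (1.48 ± 0.10) differed most on the higher side. On the lower side these were the kinase Cdk1, the partner of Ccnb1 (-1.27 ± 0.09), Birc5 of the chromosomal passenger complex (-0.50 ± 0.09) and the spindle protein Nusap1 (-0.36 ± 0.09).

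Dex was then compared with saline within germ cells, to see whether replication transcripts responded to the ligand. Fitted values of most of the 37 genes lay slightly below 0 with dex, but 0 of 37 passed the threshold, against 1.25% of all 18550 genes. The median log2 fold change was -0.13 over the 37 genes, against -0.0027 over all genes, and 33 of 37 values were below 0, against 50.4% of all genes. At an unadjusted p under 0.05, 9 of 37 were lower and 0 higher, against 7.69% of all genes lower and 1310 of 18550 higher (edgeR). Dex libraries lay under all saline libraries for 9 of 37, against 9.3% of all genes, and over them for 0, against 1999 of 18550 genes. DESeq2 called 3 of the 37 genes, Mcm5, Pola1 and Tyms, all lower, among 711 genes called over all. Without a filter on low counts, edgeR called the same 3 and Rrm1, among 767 genes called over all. The main fit called 231 genes over all.

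Mcm5 was nearest to the threshold. The gene (chr8:75109569-75128439, + strand) was at 399.7, 414 and 401 CPM in saline germ cells and at 339, 340.3 and 339 CPM in dex germ cells. The dex libraries were closely spaced and all below the saline ones, with a log2 fold change of -0.26 ± 0.06, a change of -16.8%. The adjusted p of 0.05003 (edgeR) missed the threshold narrowly and ranged from 0.00908 to 0.213 over 15 alternatives. The other MCM genes had values of -0.07 to -0.13, among them Mcm2, at 537, 534 and 606 CPM with dex, where replicate 3 lay within the saline range (-0.13 ± 0.07, adjusted p = 0.401).

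Pola1 (chrX:93304767-93632155, - strand) was at 77.0, 85.4 and 77.3 CPM in saline and 64.8, 56.1 and 64.7 CPM in dex germ cells (-0.38 ± 0.09, adjusted p = 0.0680; range over 15 alternatives 0.0104 to 0.259). Tyms was at 49.5, 51.3 and 41.4 CPM in saline and 34.2, 32.4 and 37.9 CPM in dex germ cells (-0.46 ± 0.11, adjusted p = 0.0701; range over 15 alternatives 0.00928 to 0.276). For both genes all dex libraries lay below all saline libraries, and the fitted changes were -23.1% and -27.1%. Tyms, whose level in saline was already lower in germ than in somatic cells, was called without germ saline replicate 3, at an adjusted p of 0.0350.

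The remaining genes with an unadjusted p under 0.05 were Rrm1 (-0.25), Mcm10 (-0.23), Cdc6 (-0.26), Lig1 (-0.14), Rfc3 (-0.24) and Rrm2 (-0.23), with adjusted p of 0.192 to 0.295. Rfc3 was at 63.3, 60.1 and 55.4 CPM in saline and 53.2, 46.2 and 53.4 CPM in dex, without overlap. Of the 7 genes with an E2F site before the start, all 7 had values below 0, and 4 (Mcm5, Pola1, Cdc6 and Rfc3) had an unadjusted p under 0.05. Over the 37 genes 33 were below 0 and 9 were lower at that level, against 50.4% and 7.69% of all genes. Whether the site had a part in these values was not tested. Rrm2 was at 70.3, 73.2 and 83.8 CPM with dex, where the highest library passed the lowest saline one. Cdt1, at 193, 162 and 209 CPM with dex, and Gmnn, at 49.8, 43.4 and 65.3 CPM, had dex libraries on both sides of the saline range, and Pcna had replicate 3 within it. Their 95% intervals, and that of Pcna last, were -0.25 to 0.14, -0.48 to 0.08 and -0.34 to 0.02. E2f1 was at 124, 140.3 and 149 CPM with dex (-0.03 ± 0.08, interval -0.21 to 0.14).

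**Figure D3:**
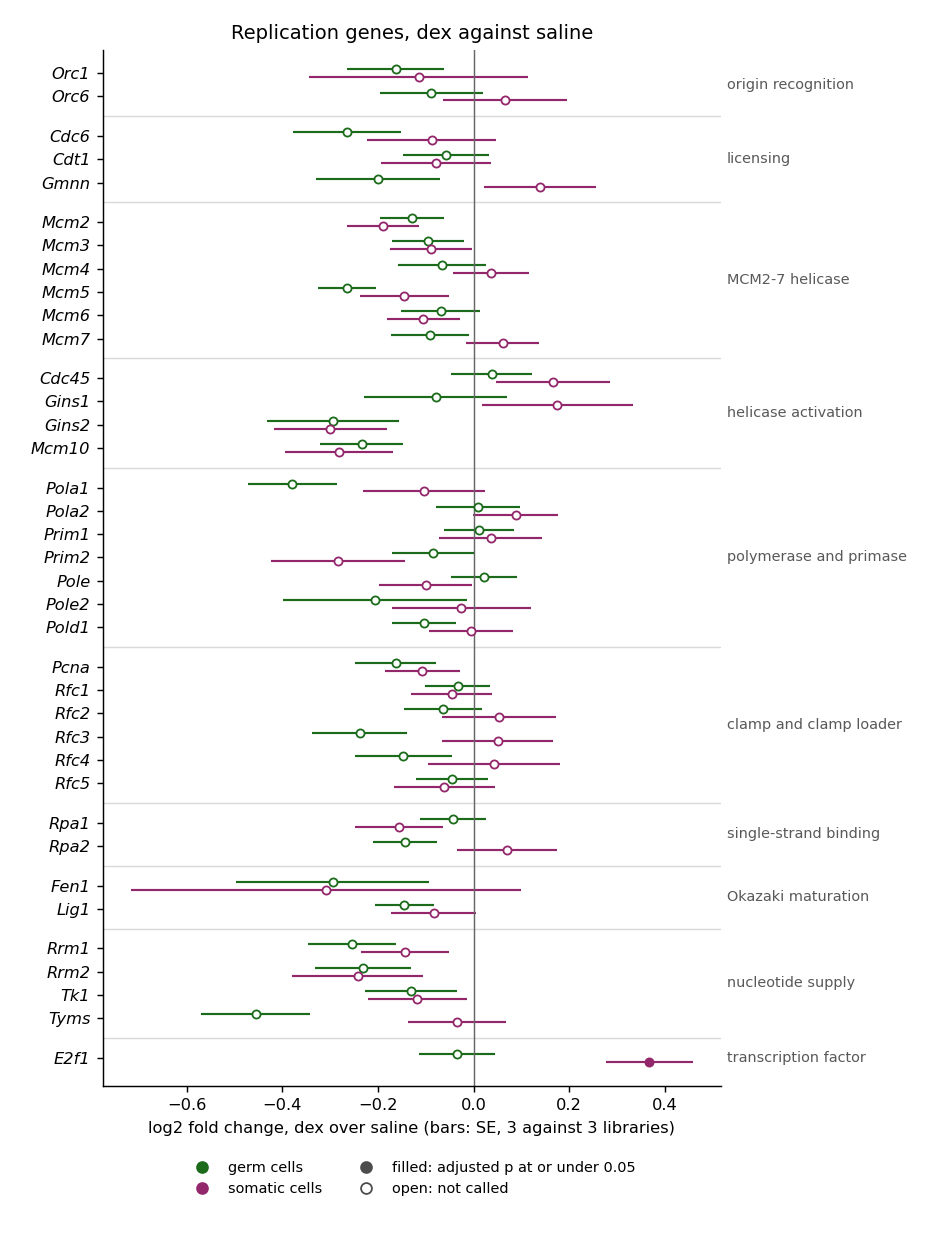
Log2 fold change of dex over saline for the 37 genes, ordered by role on the vertical axis, in germ cells (green) and somatic cells (purple), with bars of 1 SE and a filled point where the adjusted p was at or under 0.05. In germ cells 33 of 37 points lie left of 0, and the single filled point is E2f1 in somatic cells at 0.37.

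The dex germ cell libraries were not alike. Averaged over the 37 genes, the log2 CPM stood below the mean of the saline libraries by -0.16 in replicate 1, -0.21 in replicate 2 and -0.03 in replicate 3, while the saline libraries lay between -0.04 and 0.04. Replicate 2 held the lowest of the 3 dex values for 26 of 37 genes and replicate 3 the highest for 27. Without germ dex replicate 2 the median log2 fold change was -0.07 and 26 of 37 genes were lower, and without germ dex replicate 3 it was -0.17 and 35 were lower. The mean of 20 mitosis genes moved with them, at -0.29, -0.36 and -0.06 in the same 3 libraries. The summed CPM of 8 Sertoli markers, which are somatic, was 28.7 to 36.5 in dex and 40.2 to 46.2 in saline germ cells, that of 6 Leydig markers 4.83 to 8.79 against 9.07 to 11.8, and that of 6 erythroid markers 4.44 to 7.06 against 7.70 to 9.22, all without overlap. The sums of peritubular and stromal, endothelial and macrophage markers overlapped. Their part in the values of the 37 genes was not tested.

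**Figure D4:**
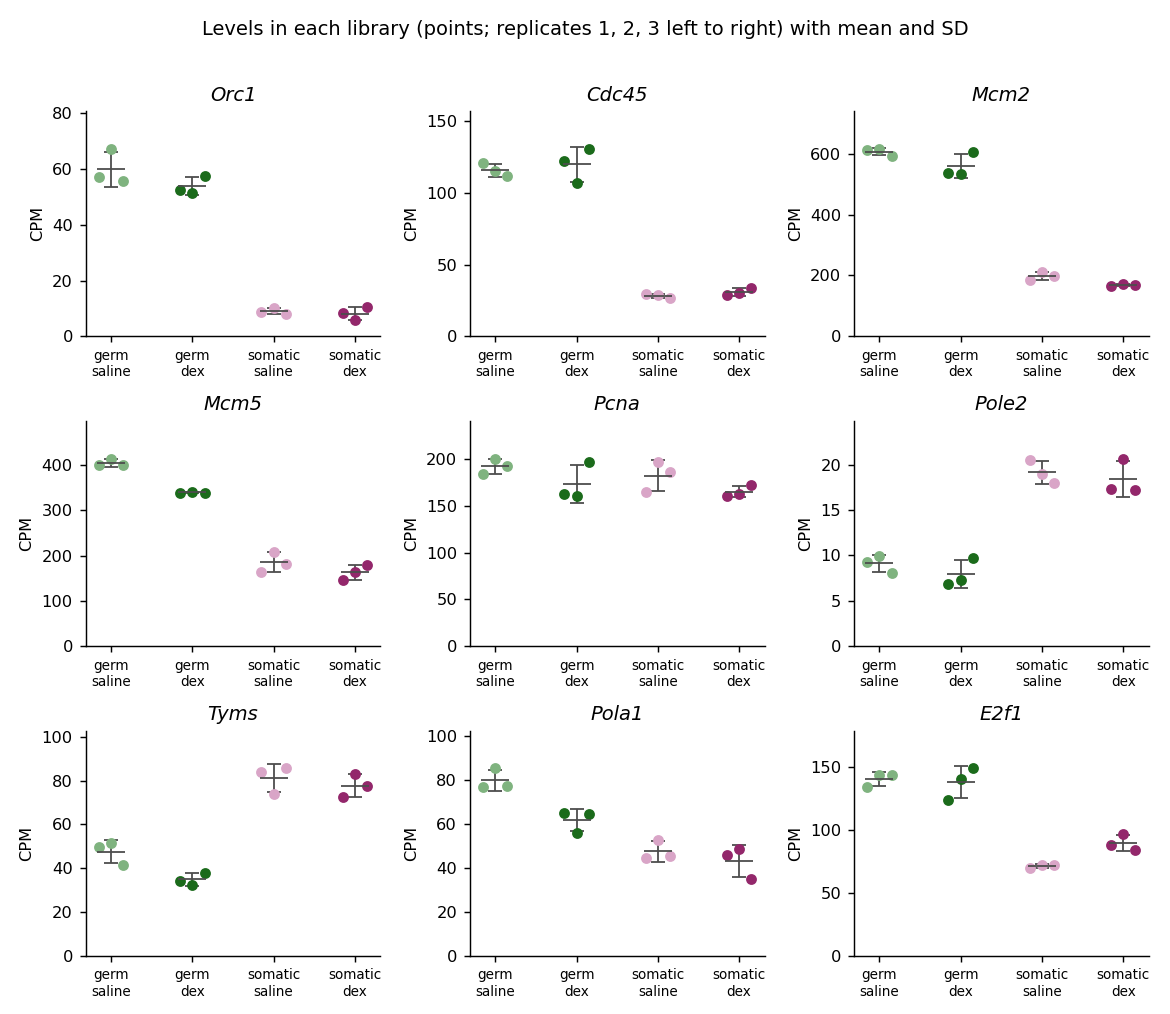
CPM of 9 replication genes in each of the 12 libraries (points, replicates 1 to 3 from left to right within a group), with the mean and SD of 3 libraries. Orc1, Cdc45, Mcm2 and Mcm5 are far higher in germ cells, Pole2 and Tyms lower, Pcna is similar in all groups, Mcm5, Pola1 and Tyms sit lower in dex than in saline germ cells, and E2f1 is higher in dex than in saline somatic cells.

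The same comparison in somatic cells gave 1 call of 37. E2f1 rose from 69.2, 71.8 and 72.0 CPM in saline to 88.0, 96.6 and 83.8 CPM with dex, and the lowest dex library was above the highest saline one. The log2 fold change was 0.37 ± 0.09 (29.0% higher, adjusted p = 0.0327, edgeR over 16766 genes; range over 15 alternatives 0.00668 to 0.146), and 2.74% of all genes were called higher and 1.17% lower. The call was lost in each of the 6 fits that left out 1 library, at adjusted p of 0.0502 to 0.146, and when library totals replaced TMM, at 0.0681, while the log2 fold change stayed between 0.31 and 0.42.

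Of the other genes none passed, and 3 were lower at an unadjusted p under 0.05, against 7.21% of all genes. Mcm2 was at 184, 212 and 198 CPM in saline and 167, 172 and 169.6 CPM in dex (-0.19 ± 0.07, adjusted p = 0.213). Gins2 was at 33.0, 32.3 and 32.3 CPM in saline and 27.3, 26.5 and 23.7 CPM in dex (-0.30 ± 0.12, adjusted p = 0.214), and Mcm10 at 37.7, 39.5 and 35.7 CPM and 31.1, 27.8 and 31.7 CPM (-0.28 ± 0.11, adjusted p = 0.219). None of the dex libraries of these 3 genes reached the saline range.

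Over the list, 24 of 37 values were below 0, against 51.2% of all genes, 4 had dex libraries under all saline libraries, against 12.3%, and the median log2 fold change was -0.08, against -0.01 over all genes. Cdt1 (60.8, 75.5 and 78.2 CPM with dex), Gmnn (33.8, 36.6 and 30.8), Pcna and Rrm2 (36.8, 44.2 and 50.9) had intervals that held 0: -0.32 to 0.16, -0.11 to 0.39, -0.28 to 0.06 and -0.53 to 0.05. In the somatic libraries the summed markers of some cell types moved with dex too, and whether the cell mixture changed was not tested. The summed CPM of 6 peritubular and stromal markers was 8280 to 9638 with dex and 5043 to 6715 with saline, that of 6 macrophage markers was 19.0 to 25.0 against 41.7 to 73.9, while those of Sertoli, Leydig, endothelial and erythroid markers overlapped, the first at 2505 to 2956 against 2749 to 2907. Single genes within the overlapping sums could still separate. Star was at 18.2 to 24.7 CPM with dex against 32.0 to 37.4 with saline, and Hbb-bs at 15.1 to 62.1 against 72.5 to 101.7. Others, such as Cyp11a1 and Cdh5, overlapped. The part of these markers in the values of E2f1 and the other genes was not tested.

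The difference between the dex effects of germ and somatic cells, tested as a contrast over all 12 libraries, was called for 0 of 37 genes, against 0.827% of 20551 genes (edgeR), and for 0 of 37 under each of 20 alternatives, DESeq2 among them. At an unadjusted p under 0.05 there were 2 of 37, against 13.3% of all genes. E2f1 had the lowest p, with a difference of -0.37 ± 0.12 between -0.03 in germ cells and 0.37 in somatic cells (adjusted p = 0.180, edgeR; range over 20 alternatives 0.0700 to 0.324). Tyms followed, with -0.39 ± 0.15 between -0.46 and -0.03 (adjusted p = 0.277), and Rfc3 with -0.25 ± 0.15 between -0.24 and 0.05 (adjusted p = 0.506). A difference in response between the populations was thus not detected for any of the 37 genes, and the median difference was -0.045.

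Genes around the list were read the same way. With dex in germ cells 94 of all 18550 genes were called lower, and so were 2 of the 66 other replication, nucleotide and G1/S genes. The 2 genes were Dnmt1, the methyltransferase that copies DNA methylation at the fork, at 886, 839 and 861 CPM in saline and 686, 699 and 755 CPM in dex (-0.28 ± 0.06, adjusted p = 0.0436), and its partner Uhrf1, at 613, 591 and 608 CPM in saline and 463, 519 and 518 CPM in dex (-0.28 ± 0.06, adjusted p = 0.0495). For both genes all dex libraries were below all saline libraries. Over the 66 genes 49 were lower, against 50.4% of all genes, with a median of -0.08.

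In somatic cells 3 of the 66 were called lower, against 1.17% of all genes. The 3 were the E2F family repressor E2f6 (-0.36 ± 0.08, adjusted p = 0.0189), cyclin A2 (Ccna2, -0.35 ± 0.09, adjusted p = 0.0310) and the Pcna-binding factor Pclaf (-0.55 ± 0.14, adjusted p = 0.0418). E2f6 was at 97.3, 110.1 and 105 CPM in saline and 78.5, 77.8 and 81.0 CPM with dex, the opposite direction of E2f1 in the same libraries. Over the 66 genes 51 were lower, against 51.2% of all genes, with a median of -0.09.

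The 20 mitosis genes were all below 0 in both populations, with medians of -0.24 in germ and -0.26 in somatic cells. At an unadjusted p under 0.05 (edgeR), 14 of 20 were lower in germ and 15 in somatic cells, against 7.69% and 7.21% of all genes. Dex libraries lay under all saline libraries for 8 and 17 of 20, against 9.3% and 12.3%. In each population 1 of 20 was called, against 1.25% of all genes in germ cells and 1.17% called lower in somatic cells. The called gene was Mki67, the proliferation marker, in germ cells (-0.44 ± 0.10, adjusted p = 0.0483), at 496, 511 and 431 CPM in saline and 369, 298 and 403 CPM in dex. In somatic cells it was Top2a, which untangles replicated chromosomes (-0.30 ± 0.08, adjusted p = 0.0366), at 378, 399.9 and 373 CPM in saline and 286, 321 and 303 CPM in dex. The medians of the replication genes, -0.13 and -0.08, were nearer to 0 than those of the mitosis genes, a difference that was not tested.

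**Figure D5:**
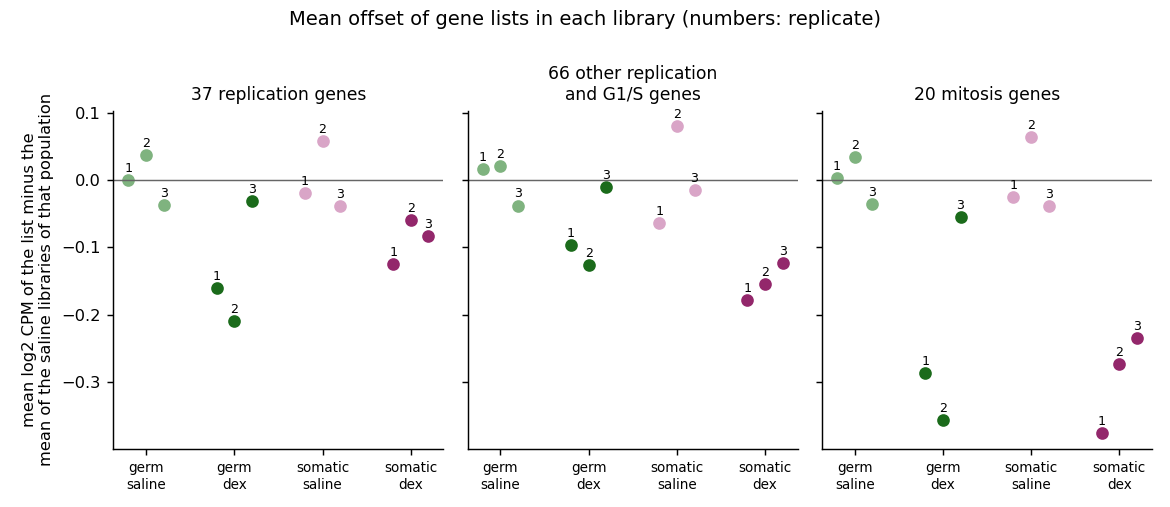
Mean log2 CPM of 3 gene lists in each library, minus the mean of the 3 saline libraries of its population, with the replicate number beside each point. For the 37 replication genes germ dex replicates 1 and 2 lie at -0.16 and -0.21 and replicate 3 at -0.03, the somatic dex libraries lie between -0.13 and -0.06, and the 20 mitosis genes lie lower than the replication genes in every dex library.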

How the data were processed

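Sorted germ and somatic cells of newborn mouse testis were profiled in 12 libraries, grouped by their titles into 4 groups of 3. The authors selected mRNA on poly-dT beads, aligned paired-end reads to mm10 (GRCm38) with HISAT2 2.0.5 and counted reads per gene with featureCounts 1.5.0-p3, and these raw counts, without normalization, make up the deposited count table. The annotation release and the strand setting are not given in the sources used here. The authors also deposited FPKM values, which divide each count by gene length and library size. Result tables of the authors' own DESeq2 1.20.0 fits, with log2 fold changes and p-values of dex against saline, were not used.

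Counts were fitted in R 4.3.3 with the two-sided quasi-likelihood test of edgeR 4.0.16, on the 6 libraries of each comparison and, for the difference of the dex effects, on all 12, with TMM scaling, filterByExpr at a minimum count of 10 and Benjamini-Hochberg adjustment over all genes tested. A gene was called at an adjusted p at or under 0.05. The SE is the size of the log2 fold change divided by the square root of F, and 95% intervals use the t distribution of the fit. CPM were scaled by TMM over all 12 libraries. FPKM served for levels between genes and for limma 3.58.1 fits on log2(FPKM + 0.1) and log2(FPKM + 1). The other alternatives were DESeq2 1.42.0, RLE factors, library totals, other filters, a replicate block, 1 fit over all 12 libraries and leaving out each library. The edgeR fit was tested on simulated germ cell counts in which some genes changed by a log2 fold of 1. Smaller changes, such as the dex values of the 37 genes, were not simulated.

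The 37 genes, the lists of 66 other replication and 20 mitosis genes, the marker lists and the tests were chosen with earlier results of these data known. Values per library are given for members called with dex or in the difference, or else the 3 with the lowest p, for the 4 largest germ against somatic differences each way, and for Mcm2, Cdt1, Gmnn, Pcna, Rrm2 and E2f1. From the other lists, genes called with dex and the 3 largest germ against somatic differences each way in saline are named. Replicates differed by more than counting noise, with a chi-square per gene of 6.11 to 20.3. The p-values measure the spread between these pooled samples. Replicate numbers recur across groups, and the deviations of same-numbered libraries from their group means correlated at -0.0876 to 0.0450, under the 0.1 set for treating the numbers as pairs. A low value does not show that germ and somatic libraries of a number came from different pools, which the sources used here do not state. Overlap of exons came from GENCODE M21 and promoters from RefSeq.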

Additional observations from a re-analysis of the deposited data

How the results depend on the processing

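With dex in germ cells, 0 of 37 genes were called, against 3 with DESeq2, 4 without a filter on low counts and 1 with at least 10 counts in every library, and 0 to 1 when 1 library was left out. In somatic cells 1 was called, against 0 with library totals in place of TMM, 0 in either FPKM fit and 0 in each of the 6 fits that left out 1 library. The cause of these changes was not tested, beyond the number of genes and samples in each fit. The median difference between the dex effects of the 37 genes turned from -0.045 to 0.0034 with library totals. Values near 0 turned their sign. Pcna in dex germ against somatic cells went from -0.0070 to 0.0929 with DESeq2 and with RLE factors, 0.175 with library totals, 0.0673 without a filter, 0.0603 with at least 10 counts, 0.0963 and 0.0951 in the FPKM fits, and -0.0766 to 0.0746 with 1 library left out. Leaving out 1 library gave -0.0945 to 0.0634 for Pcna in saline, -0.0932 to 0.0319 for E2f1 with dex in germ cells, and -0.139 to 0.0435 in germ and -0.158 to 0.0282 in somatic cells for Cdt1 with dex. No gene called in germ against somatic cells turned its sign.

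Over all genes, 231 were called with dex in germ cells, against 711 with DESeq2, 767 without a filter, 142 with all 12 libraries in 1 fit, 6 and 12 in the FPKM fits and 49 to 265 with 1 library left out. In somatic cells 655 were called, against 1061 without a filter, 251 and 281 in the FPKM fits and 354 to 547 with 1 library left out. For the difference 170 were called, against 648 with DESeq2, 706 without a filter, 262 with at least 10 counts in every library, 57 in an FPKM fit and 79 to 172 with 1 library left out. With the replicate block 65, 669 and 90 genes were called, and the block called 0 and 1 of the 37 genes with dex, 33 and 33 in germ against somatic cells and 0 for the difference, the numbers of the fits without it. In saline every germ cell library correlated best with the somatic library of its number, at 0.0366 to 0.0450, which is a hint from the data only. Low counts limit the precision for Fen1, which held 34 to 139 counts in a somatic library.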
